A study of Bos taurus with 41 samples.

Results

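Endo-IVP Conc endometrium is bovine uterine tissue that lay under a section of an in vitro produced (IVP) elongating conceptus for 12 h. The 12 libraries were chosen by their sample titles, which name endometrium co-cultured with IVP conceptus, and they are 12 of the 41 RNA-seq libraries described for the series. The explants were intercaruncular punches from cyclic, non-bred Angus-Holstein heifers at day 16, kept in RPMI medium with fetal bovine serum, and every explant met a conceptus section from an embryo transfer pregnancy of day 16. The other libraries are of conceptus tissue, with 7 from Endo-IVP Conc cultures, 9 from Endo-IVD Conc cultures (in vivo derived conceptus), 5 from IVP Conc mono-culture and 8 from IVD Conc mono-culture. Endometrium cultured alone or with IVD conceptus was not analysed here, so no value below is a response to the conceptus, and each is a level or a spread within 1 condition.

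The library codes give the uterus, the well and the conceptus, so that E17-S2-18 is the explant of uterus 17 that was cultured with conceptus 18. The 12 explants came from 7 uteri, 5 of which gave 2 explants each, and met 7 conceptuses, 5 of which lay on 2 uteri each. Conceptuses 62a and 62b were recovered from 1 recipient. Explants are therefore not independent heifers, and spread between explants of a uterus may be partly technical. The paper reports that RNA integrity varied between endometrial samples. Integrity was not used here, so its part in the spreads below was not tested.

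In ruminants the trophectoderm of the elongating conceptus secretes interferon tau, the signal for maternal recognition of pregnancy. It binds the type I interferon receptor (IFNAR1 and IFNAR2) on endometrial cells, where the kinases JAK1 and TYK2 activate a transcription factor complex that includes STAT2 and IRF9 and drives interferon-stimulated genes (ISG). ISG products include antiviral effectors, sensors of foreign RNA and DNA, and ISG15, a ubiquitin-like protein that is joined to other proteins. The endometrium around these signals is layered, with a luminal epithelium, glands that secrete histotroph, stroma, vessels and immune cells, above the smooth muscle of the myometrium.

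Libraries held between 24593699 counts (E17-S2-18) and 84030248 counts (E69-S1-62b), with 18333 to 19812 genes that had a count. Of the genes in the table, 22646 had a count in any of the 12 libraries and 14397 passed the filter on low counts, which with 12 libraries in 1 group asks for a minimum in each of them, so that genes near 0 in any 1 library are not among those described by spread. Levels are CPM, the counts of a gene relative to the library size after scaling by the trimmed mean of M values (TMM), and spread is the SD of log2 CPM over the 12 libraries. CPM order genes by reads and not by molecules, because longer transcripts collect more reads and transcript lengths were not used. The 20 genes with the most counts took 9.61% ± 1.60 of each library (SD, n = 12), and mitochondrially encoded genes took from 1.12% (E39-Q1-24) to 5.43% (E70-S1-62b) with a median of 1.66%.

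E17-S2-18 stood apart from the rest. It was the shallowest library, and it held counts of pituitary hormone genes, which were chosen after their values were seen. It had 23176 counts of PRL (prolactin), against 2 to 1211 in the other 11 libraries, and 2404 counts of GH1 (growth hormone), against 0 to 58. CGA, the shared subunit of the glycoprotein hormones, had 242 counts there, against 0 to 4, and POU1F1, the pituitary transcription factor, had 28, against 0 to 2. The other libraries with the most PRL were the explants of uterus 70, with 1211 counts in E70-Q1-62a and 921 in E70-S1-62b. FSHB had 20 counts in E17-S2-18 and 0 in the others, TSHB 22 against 0 to 4, and SCG2 212 against 0 to 18. LHB and POMC, other hormone genes of the pituitary, were not highest in E17-S2-18. For several results that rest on this library, values without it are also given.

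The tissue was checked against its markers before gene classes were described. RSAD2, ISG15 and MX1, which mark interferon-exposed tissue, and DCN (decorin), a proteoglycan of stroma, each exceeded 500 CPM in every library. All 8 stroma markers, all 11 epithelial markers and all 7 endothelial markers passed the filter, with summed levels of 4019 to 19050, 501 to 3555 and 829 to 1951 CPM (endothelium at least 959 CPM without E17-S2-18). Immune lists were lower, with sums of 11.0 to 63.0 CPM for T and NK cells (9 of 11 listed symbols kept), 3.42 to 14.5 CPM for B and plasma cells (3 of 5) and 79.1 to 303 CPM for macrophages and dendritic cells (9 of 10, with at least 101 CPM without E17-S2-18). In bulk tissue, fewer cells of a type and less RNA per cell cannot be told apart.

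RSAD2, an antiviral enzyme also called viperin, ranged from 3279 to 10080 CPM with a median of 5742 CPM. Its lowest levels were in E15-Q2-28 and both explants of uterus 17, and its highest in E69-S1-62b and E14-S1-23. ISG15 ranged from 1867 CPM (E17-Q2-28) to 7425 CPM (E14-Q1-24) with a median of 3545 CPM. MX1, a dynamin-like GTPase that blocks viral replication, ranged from 598 to 3936 CPM with a median of 2519 CPM. Its low value was in E15-Q2-28 and the next lowest 2 in uterus 17, while E69-S1-62b was highest. DCN ran in another order, from 1510 CPM (E17-Q2-28) to 5540 CPM (E15-Q2-28) with a median of 3243 CPM. The SD of log2 CPM was 0.55 for RSAD2, 0.50 for ISG15, 0.77 for MX1 and 0.59 for DCN.

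**Figure D1:**
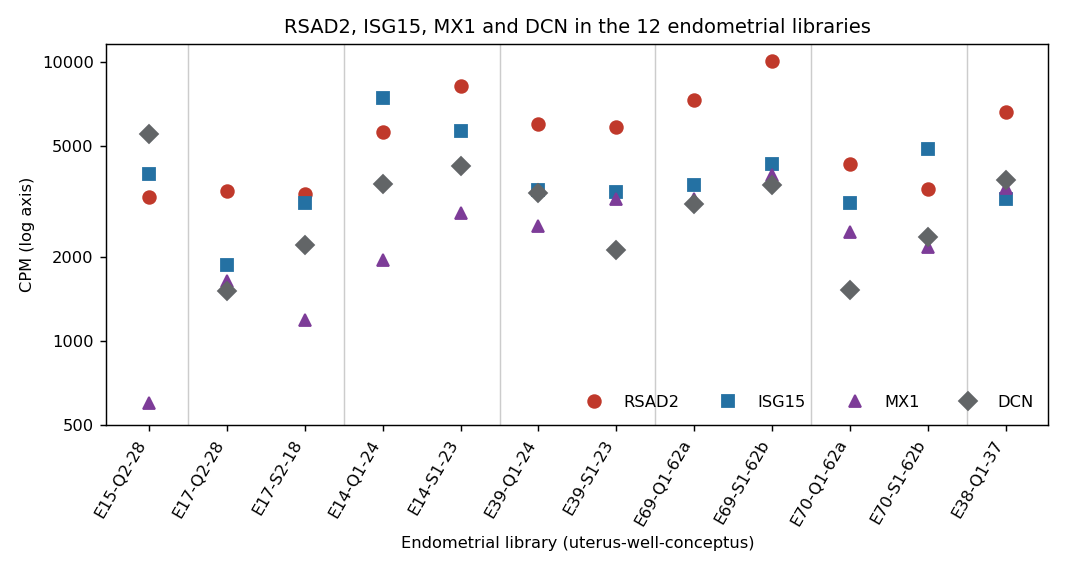
CPM of RSAD2, ISG15, MX1 and DCN on a log axis (vertical) in each of the 12 endometrial libraries (horizontal), ordered and divided by uterus. RSAD2 is lowest at 3279 CPM in E15-Q2-28 and highest at 10080 CPM in E69-S1-62b, and MX1 is lowest at 598 CPM in E15-Q2-28.

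Over the ISG as a class, 73 genes were kept, with a median level of 7.81 log2 CPM against 4.04 over all 14397 genes kept. Of the 73, 58 had a mean of at least 100 CPM, whereas 1948 of all genes kept did (13.5%). The median spread of the ISG was 0.51 log2 CPM, against 0.48 over all genes kept, and 1 ISG had an SD of at least 1, against 1218 of all genes kept (8.46%). ISG were thus abundant, and their spread over the libraries was about that of the transcriptome.

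ISG took 3.69% ± 0.947 of the library size after TMM scaling (SD, n = 12). The share was 2.31% and 2.49% in the explants of uterus 17 and 2.54% in that of uterus 15, and between 3.15% and 5.16% in the other 9 libraries, with no overlap between these ranges. The highest shares were 5.16% in E69-S1-62b and 4.92% in E14-S1-23. The same 3 libraries of uteri 15 and 17 also had high heat shock chaperone shares, at 6.45%, 8.33% and 5.72% of unscaled counts. E14-Q1-24 had 5.99% of unscaled counts, with a scaled ISG share of 4.37%. The part of the heat shock difference in the ISG result was not tested. Conceptuses 28 and 18 lay only on these uteri. These 3 libraries were also the only ones with well codes Q2 or S2, while the other 9 had Q1 or S1. Uterus, conceptus and well code therefore cannot be told apart here.

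Antiviral effectors formed the largest ISG list, with 36 genes kept and a median of 7.77 log2 CPM. MX2, the second bovine MX protein, ranged from 289 to 2720 CPM with a median of 979 CPM, and its SD of 0.98 was near the top of the list. IFIT1, which binds foreign RNA, ranged from 413 to 1579 CPM around a median of 1052 CPM, and IFIT5 from 494 to 1354 CPM around 968 CPM. SAMD9, an inhibitor of viral translation, was the 1 ISG with an SD above 1, and ranged from 45.9 to 445 CPM around a median of 147 CPM. The 2',5'-oligoadenylate synthetases, which activate RNase L, differed in spread. OAS1Y ranged from 812 to 1604 CPM with an SD of 0.28, and OAS1X from 222 to 1338 CPM with an SD of 0.87. OAS1X was low in all 4 explants of uteri 69 and 70, at 222, 283, 408 and 384 CPM, and above 500 CPM in the other 8. The OAS1 genes are close paralogs, so reads could have been split between them.

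The other ISG lists had median SDs close to that of the effectors (0.54), at 0.51 for the sensors, 0.53 for ISG15 conjugation and 0.50 for transcription and signalling. IFIH1 and DDX58, the RNA sensors MDA5 and RIG-I, ranged from 273 to 965 CPM and from 149 to 621 CPM. ZNFX1, a helicase-like sensor of RNA, ranged from 851 to 1917 CPM around a median of 1437 CPM, and ZBP1, a sensor of nucleic acids in the Z conformation, from 67.7 to 530 CPM around 175 CPM. All 12 sensors had an SD under 1. For ISG15 conjugation, UBA7, the activating enzyme, ranged from 511 to 2086 CPM, UBE2L6, the conjugating enzyme, from 29.5 to 93.1 CPM and HERC5, a ligase, from 226 to 878 CPM. USP18, which removes ISG15 and restrains receptor signalling, ranged from 300 to 839 CPM. All 6 genes of that list had an SD of 0.65 or less.

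The receptor and its signal chain were present in every library. IFNAR1 ranged from 100 to 221 CPM and IFNAR2 from 84.1 to 215 CPM. JAK1 ranged from 349 to 886 CPM and TYK2 from 59.4 to 104 CPM, with an SD of 0.22 for TYK2. Downstream of them, STAT2 ranged from 113 to 496 CPM, IRF9 from 281 to 834 CPM, IRF1 from 422 to 1475 CPM and IRF7 from 320 to 715 CPM. SOCS3, an inhibitor of cytokine signalling, ranged from 140 to 595 CPM.

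Antigen presentation split by class. The 14 class I genes had a median of 8.02 log2 CPM and a median SD of 0.40, with B2M, the class I light chain, at 715 to 1884 CPM and TAP1, the peptide transporter, at 265 to 513 CPM. The 9 class II genes kept of 17 listed had a median of 2.94 log2 CPM and a median SD of 0.83. Within them CD74, the invariant chain, ranged from 167 to 915 CPM, BOLA-DRA from 77.4 to 516 CPM, and CIITA, the class II transactivator, from 3.03 to 15.7 CPM. The class II sum was lowest in E17-Q2-28 (315 CPM) and highest in E70-S1-62b (1798 CPM). The sums for T and NK cells and for B and plasma cells were lowest and highest in the same libraries. The macrophage and dendritic cell sum was lowest in E17-S2-18 (79.1 CPM) and highest in E69-S1-62b (303 CPM), where the class II sum was 964 CPM. The part of immune cell content in the class II result was not tested. JSP.1, a class I heavy chain gene, ranged between 105 and 2750 CPM with a median of 1214 CPM. Both explants of uterus 17 were low, at 125 and 105 CPM, and the other 10 libraries held 736 CPM or more, without overlap. Class I genes are polymorphic and have near copies, so how reads of different alleles aligned could move this value.

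Conceptus RNA was near absent from the endometrial libraries. IFNT3, an interferon tau gene, had 36 counts summed over the 12 libraries and at most 8 in any of them. TKDP1, a trophoblast Kunitz domain protein, had 114 counts in all and at most 44, PAG2, a pregnancy-associated glycoprotein, had 4, PAG17 had 65, all in the explants of uterus 70, and PAG12, TKDP2 and the hypoblast gene AFP had 0. A count of 0 allows up to 3 counts, which is 0.122 CPM of the total in the shallowest library, for counting error only. The gene annotated as PAG1 (ENSBTAG00000014026) had 80 to 875 counts in every library, while a second gene of that symbol had 0. Whether the first is a pregnancy-associated glycoprotein gene was not checked, so its counts are not taken as conceptus RNA. The pregnancy-associated glycoprotein genes are close paralogs. Of 18 trophectoderm markers 4 were kept, among them this PAG1 gene and GATA2, which ranged from 85.1 to 341 CPM. Of 8 hypoblast markers 3 were kept.

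In 7 wells both the endometrium and the conceptus section were sequenced. RSAD2 was at 3494 to 10080 CPM in these endometria, against 0 to 0.434 CPM in the conceptus sections above them. ISG15 was at 3410 to 7425 CPM in endometrium, against 0 to 0.884 CPM in conceptus, and MX1 at 1956 to 3936 CPM against 0.140 to 3.99 CPM. In the other direction, IFNT3 was at 0 to 0.191 CPM in endometrium, against 772 to 2342 CPM in conceptus, and TKDP1 at 0 to 1.30 CPM against 7235 to 77039 CPM. KRT8, a keratin that both tissues express, was at 68.5 to 442 CPM in endometrium, against 6544 to 14032 CPM in conceptus. The ranges of the tissues did not overlap for any of these chosen genes, nor for DCN, DES, PAG2 or PAG11. They did overlap for TDGF1, at 0.951 to 7.69 CPM in endometrium against 5.21 to 76.7 CPM in conceptus. HBA (0.578 to 193 against 1.47 to 24.5 CPM) and IFN-TAU (0 to 0.0525 against 0 to 0.745 CPM) overlapped as well. The share of all genes without overlap was not computed. For 1 of these conceptus sections the treatment field names medium alone, and it was placed by its title. No test was made, since the tissues were aligned with different programs and tabulated separately.

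Of the 50 genes with the highest mean CPM, 7 were heat shock chaperones, 7 glycolysis and hypoxia genes, 5 mitochondrially encoded and 3 ISG. EEF1A1, the elongation factor, ranged from 6862 to 16906 CPM around a median of 8222 CPM, and SLC2A3, a glucose transporter, from 3784 to 15390 CPM around 7982 CPM. HSPA5, the chaperone of the endoplasmic reticulum, ranged from 3785 to 11280 CPM, and GAPDH, the glycolytic enzyme, from 2500 to 5384 CPM with an SD of 0.31. The inducible chaperone HSPA1A was uneven, from 2408 to 27724 CPM around a median of 6077 CPM. It was at 27724 CPM in E14-Q1-24, 24925 CPM in E17-Q2-28, 21221 CPM in E15-Q2-28 and 13914 CPM in E17-S2-18, and at 7083 CPM or less in the other 8 libraries. HSPA8, the constitutive family member, ranged from 1247 to 11161 CPM with an SD of 1.08, and the cofactor DNAJB1 from 408 to 4865 CPM. COX1, COX3 and ATP6, all encoded in the mitochondrion, reached 10733, 10112 and 8721 CPM, against medians of 4614, 2683 and 2302 CPM. RSAD2, ISG15 and DCN were among the 20 symbols with the highest mean CPM, and 8 of the top 100 and 15 of the top 200 genes were ISG.

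Other classes were set beside all genes kept by level and spread. Glycolysis and hypoxia genes (37 kept) had a median of 8.37 log2 CPM and a median SD of 0.41, with 32 at a mean of at least 100 CPM. Cytosolic ribosomal proteins (92 kept) had a median of 9.33 log2 CPM and a median SD of 0.37. They took a median of 5.94% of the library size after TMM scaling, with the most in E17-S2-18 (10.2%). As a share of unscaled counts, which is another measure, they took at most 9.12% without E17-S2-18. Proteasome subunits (38 kept, median SD 0.27), cytosolic chaperonin subunits (9 kept, 0.29) and mitochondrial ribosomal proteins (76 kept, 0.30) had the smallest median spreads among the classes measured, and 0 of the proteasome and chaperonin genes had an SD of at least 1. Heat shock chaperones (20 kept, 0.66) and mitochondrially encoded genes (13 kept, 0.68) were wider.

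Some other classes held more genes of wide spread. Among keratins, the intermediate filaments of epithelia, 5 of 13 had an SD of at least 1 (38.5%), among collagens 10 of 29 (34.5%) and among potassium channels 13 of 40 (32.5%), against 8.46% of all genes kept. Solute carriers, which move nutrients across membranes, had 31 of 251 (12.4%). Against a median level of 4.04 log2 CPM over all genes kept, keratins had 3.09, collagens 6.23, potassium channels 1.53 and solute carriers 3.45. The part of level in these spreads was not tested. Endothelial markers had 0 of 7, with a median SD of 0.47. Chemokines (21 kept of 31 listed) had a median level of 4.55 log2 CPM and a median SD of 0.90. CXCL16 ranged from 120 to 341 CPM and CCL2, which attracts monocytes, from 64.4 to 416 CPM, whereas CXCL9, induced by interferon gamma, ranged from 0.887 to 52.5 CPM. Immediate early genes (25 kept, 0 with an SD of at least 1) had a median of 8.70 log2 CPM, and FOS ranged from 379 to 2166 CPM and EGR1 from 543 to 3607 CPM. Their summed level was highest in E14-Q1-24 (25486 CPM) and lowest in E38-Q1-37 (7626 CPM).

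**Figure D2:**
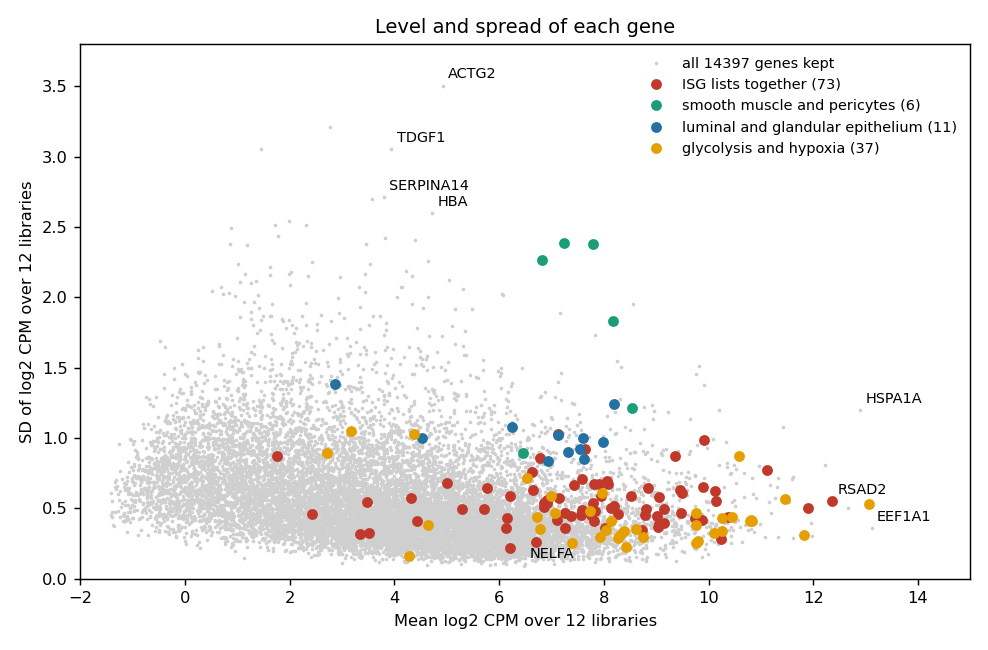
Mean of log2 CPM (horizontal) and SD of log2 CPM (vertical) over the 12 libraries for each of 14397 genes, with ISG, smooth muscle, epithelial and glycolysis lists in colour. ISG lie at high levels with 1 of 73 above an SD of 1, and 5 of 6 smooth muscle and pericyte markers lie above an SD of 1.

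Hormone receptors ordered differently in spread. PGR, the progesterone receptor, ranged from 44.6 to 108 CPM with an SD of 0.38, and ESR1, an oestrogen receptor, from 28.1 to 177 CPM with an SD of 0.71. OXTR, the oxytocin receptor whose rise in luminal epithelium precedes luteolysis, ranged from 4.95 to 154 CPM around a median of 25.2 CPM. It was highest in E15-Q2-28 and above 100 CPM in both explants of uterus 70, and lowest in E39-Q1-24. The prostaglandin synthase PTGS2 ranged from 44.3 to 517 CPM, and HPGD, which inactivates prostaglandins, from 15.1 to 657 CPM. HPGD was at 657 and 169 CPM in the explants of uterus 17 and at 57.6 CPM or less in the other 10.

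Among receptivity and histotroph genes (39 kept), 14 had an SD of at least 1. IGFBP3, which binds insulin-like growth factors, ranged from 987 to 4296 CPM, CLU (clusterin) from 854 to 3713 CPM and IGF2 from 350 to 1136 CPM. GRP, a peptide of the uterine glands, ranged from 36.4 to 2264 CPM around a median of 436 CPM, and SERPINA14, the uterine serpin of histotroph, from 0.349 to 101 CPM around 35.1 CPM. FOXA2, a transcription factor of glands, ranged from 1.33 to 32.1 CPM. E39-Q1-24, which had the lowest GRP and SERPINA14, also had the lowest summed level of epithelial markers, at 501 CPM against a median of 2049 CPM. The part of epithelial content in these values was not tested.

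The most variable gene was ACTG2, the smooth muscle gamma actin, with an SD of 3.50, or 3.09 without E17-S2-18. It ranged from 1.87 to 1976 CPM around a median of 15.0 CPM. It was high in E17-S2-18 (1976 CPM) and E39-S1-23 (941 CPM) and under 3 CPM in E17-Q2-28, E69-S1-62b and E70-S1-62b. ACTA2, an alpha actin of smooth muscle, ranged from 24.2 to 4726 CPM, or to 1204 CPM without E17-S2-18. The same pair of libraries was highest for other contractile genes. DES (desmin) was at 2551 CPM in E17-S2-18 and 4490 CPM in E39-S1-23, against a median of 131 CPM. MYH11, smooth muscle myosin, was at 2171 and 792 CPM in these libraries, against a median of 118 CPM. Outside the marker list, PDLIM3, a LIM protein of actin filaments, was at 358 and 158 CPM there (median 6.95 CPM), KCNMB1, a potassium channel subunit of smooth muscle, at 156 and 38.3 CPM (median 4.68 CPM), and KCNG1, another channel subunit, at 139 and 88.1 CPM (median 1.19 CPM).

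The 6 smooth muscle and pericyte markers summed to between 270 CPM (E17-Q2-28) and 14228 CPM (E17-S2-18), a 52.7-fold range around a median of 1278 CPM. Without E17-S2-18 the highest sum was 9870 CPM, a 36.5-fold range. The extremes were explants of the same uterus. Stroma markers spread less, with a 4.74-fold range from E17-Q2-28 (4019 CPM) to E15-Q2-28 (19050 CPM), and so did epithelial markers, with a 7.09-fold range from E39-Q1-24 (501 CPM) to E17-Q2-28 (3555 CPM). Leaving out E17-S2-18 left both of these ranges as they were.

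**Figure D3:**
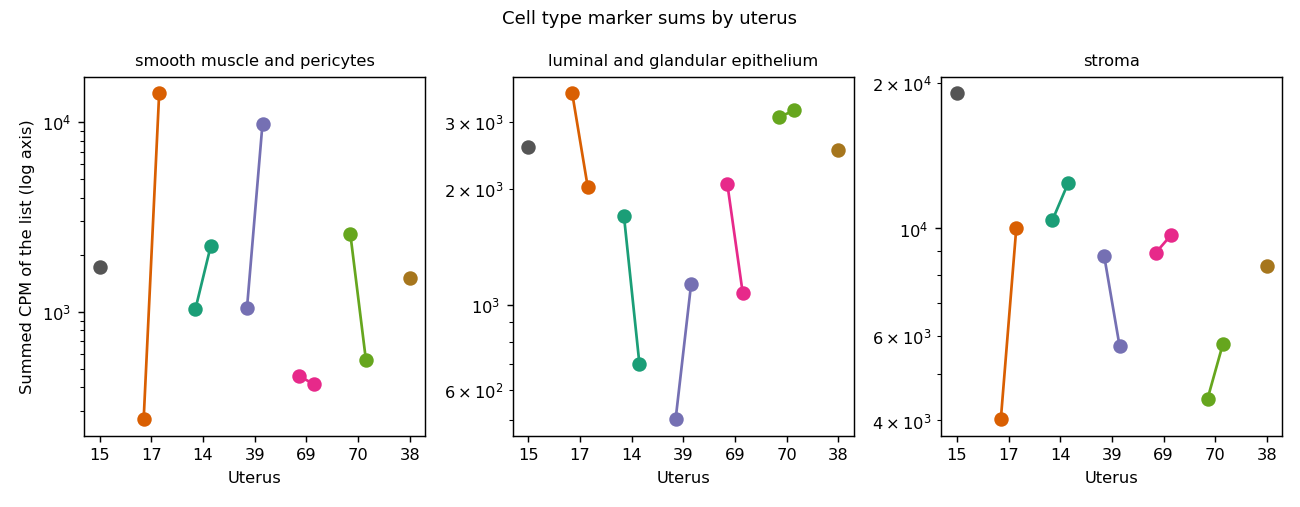
Summed CPM of smooth muscle and pericyte, epithelial and stroma markers (vertical, log axes) by uterus (horizontal), with a line joining the explants of a uterus. The smooth muscle sum is 270 CPM in E17-Q2-28 and 14228 CPM in E17-S2-18, both of uterus 17.

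Other highly variable genes were high in uteri 15 and 17, the only uteri with well codes Q2 or S2. TDGF1 (Cripto), a co-receptor of Nodal, ranged from 0.951 to 662 CPM around a median of 7.66 CPM. It was at 662 and 310 CPM in uterus 17 and 160 CPM in uterus 15, and at 50.7 CPM or less in the other 9 libraries. M-SAA3.2, an acute phase serum amyloid A, ranged from 0.257 to 260 CPM, with its 2 highest levels in uterus 17, and SUSD2, a membrane protein, from 1.70 to 449 CPM with the same pair on top. UPK1B, a uroplakin of epithelial membranes, reached 228 CPM in E15-Q2-28 and 14.6 CPM or less elsewhere. CCNB1, the mitotic cyclin, was at 170 CPM in E17-Q2-28, against a median of 3.44 CPM. Over the 100 most variable genes, E17-Q2-28 was the highest library for 35, E17-S2-18 for 20 and E15-Q2-28 for 13. With E17-S2-18 left out and the genes ranked again, E17-Q2-28 was highest for 37, E15-Q2-28 for 18 and E39-S1-23 for 11.

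MKI67 and TOP2A, also of the cell cycle, had their peak in another library. MKI67, a marker of dividing cells, ranged from 0.459 to 20.7 CPM around a median of 1.13 CPM, and TOP2A, the mitotic topoisomerase, from 0.631 to 19.9 CPM around 1.70 CPM. Both were highest in E15-Q2-28, and in the other 11 libraries MKI67 did not exceed 1.74 CPM. E15-Q2-28 also held the most SPARC, a matrix glycoprotein, at 4890 CPM, with 3064 CPM in E17-S2-18 and 995 CPM or less in the other 10.

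Some variable genes were split in other ways. HBA, a haemoglobin chain of red cells, was at 0.578 CPM in E14-S1-23 and 0.761 CPM in E69-S1-62b and between 20.5 and 193 CPM in the other 10. HBM, another haemoglobin gene, ranged only from 1.40 to 7.98 CPM. SLAMF8, a receptor of myeloid cells, was at 111 and 168 CPM in uterus 70 and at 2.35 and 1.04 CPM in uterus 17, with a median of 34.4 CPM. The globin genes are paralogs, which bears on how their reads were divided.

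**Figure D4:**
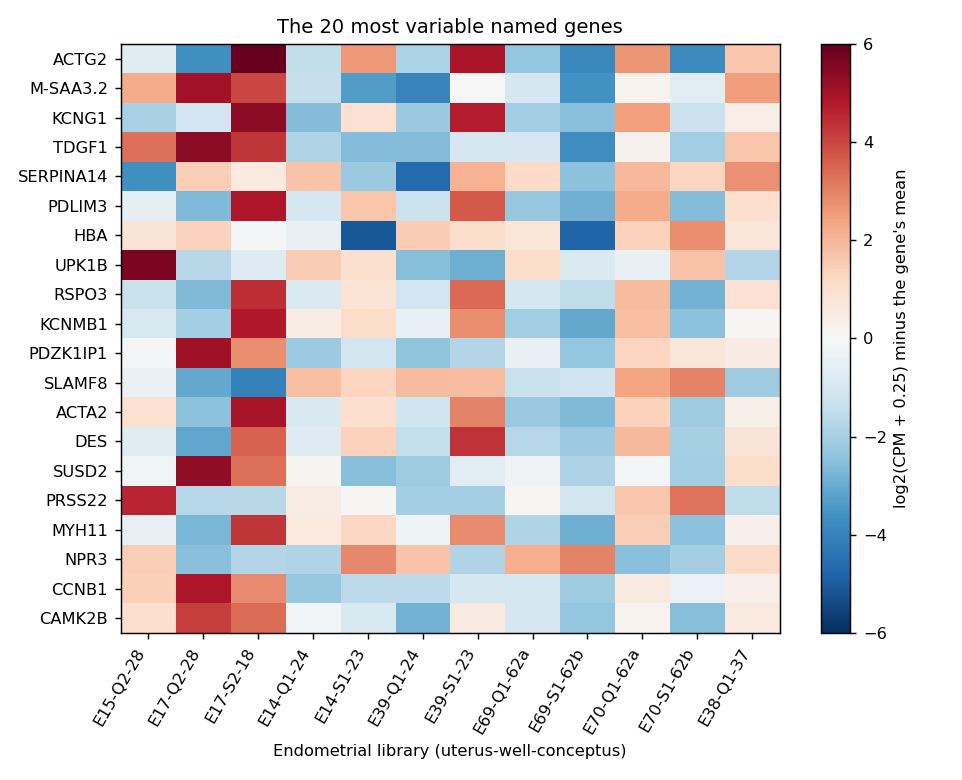
Each of the 20 genes with the highest SD of log2 CPM (rows) in the 12 libraries (columns, ordered by uterus), coloured by log2 CPM minus the gene's mean. ACTG2, KCNG1 and PDLIM3 are highest in E17-S2-18 and E39-S1-23, and TDGF1 and SUSD2 are highest in the explants of uterus 17.

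The least variable gene was NELFA, a subunit of the factor that pauses RNA polymerase II, which ranged from 77.3 to 96.4 CPM around a median of 88.5 CPM with an SD of 0.09. RAD52, a DNA repair protein, ranged from 22.4 to 28.3 CPM, and PIGC, an enzyme of membrane anchor synthesis, from 52.5 to 65.5 CPM. EGLN2, an oxygen-sensing prolyl hydroxylase, ranged from 61.1 to 81.2 CPM, and TRIM28, a transcriptional corepressor, from 199 to 267 CPM. The highest library exceeded the lowest by 1.25-fold for NELFA, against a median of 3.03-fold over all genes kept. The 20 named for low spread include genes of transcription, protein modification, DNA repair and mitochondria, and 0 of them were in any of the lists described here. Among genes with a mean log2 CPM of at least 1, the 500 least variable had SD of 0.09 to 0.19 and a median level of 5.74, and the 500 most variable had SD of 1.15 to 3.50 and a median level of 2.98.

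The pairs of libraries that share a uterus or a conceptus show how these spreads were arranged. The distance between libraries was the median over genes of the absolute difference in log2 CPM. It was 0.32 for the 5 pairs that share a uterus (0.22 to 0.49), 0.48 for the 5 pairs that share a conceptus (0.31 to 0.61) and 0.49 for the 56 pairs that share neither (0.25 to 0.78). The closest explants were those of uterus 69, and the farthest within a uterus were those of uterus 17. The ranges of the 3 kinds of pair overlapped.

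**Figure D5:**
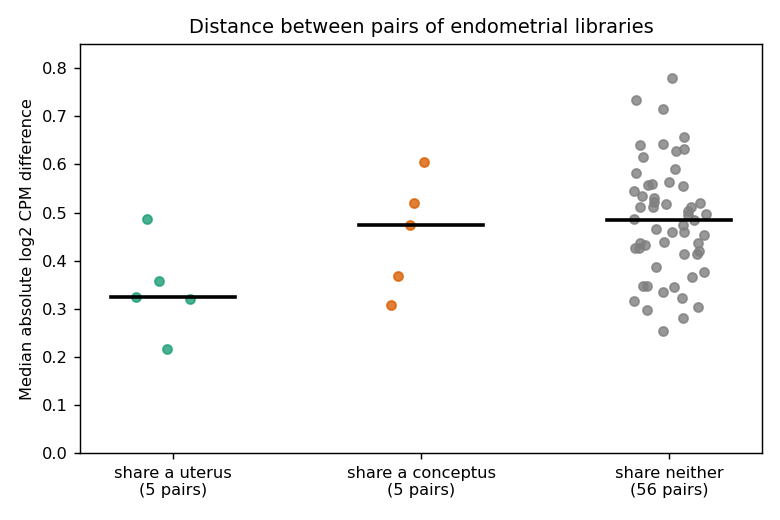
Median absolute log2 CPM difference (vertical) for each pair of the 12 libraries, by what the pair shares, with a bar at the median of each kind. Pairs that share a uterus have a median of 0.32, pairs that share a conceptus 0.48 and pairs that share neither 0.49.

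Gene by gene, the mean difference within uterus pairs was smaller than within conceptus pairs for 10692 of 14397 genes (74.3%) and for 60 of 73 ISG (82.2%). The median difference of the ISG was 0.33 within a uterus and 0.48 within a conceptus, with 0.28 and 0.59 for RSAD2, 0.41 and 0.66 for ISG15, and 0.36 and 0.66 for MX1 (uterus, then conceptus). Cell cycle genes (0.40 and 0.88), class II genes (0.41 and 0.79) and stroma markers (0.65 and 1.29) were also closer within a uterus. E15-Q2-28 enters only the conceptus pairs, and without it the values within a conceptus were 0.63 for cell cycle genes, 0.74 for class II genes and 0.97 for stroma markers, and 62.0% of all genes kept and 72.6% of the ISG were closer within a uterus. Smooth muscle markers were not, with a median difference of 2.98 within a uterus and 1.60 within a conceptus, and cytosolic ribosomal proteins had 0.47 and 0.39. The order of the ribosomal values turned without E17-S2-18, at 0.34 within a uterus and 0.39 within a conceptus, and likewise without E17-Q2-28, at 0.34 and 0.37. ACTG2 differed by 5.81 on average between explants of a uterus and by 2.19 between explants of a conceptus.

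Uterus and conceptus were separable only in 8 libraries, where uteri 14 and 39 each met conceptuses 24 and 23, and uteri 69 and 70 each met 62a and 62b. With 2 residual degrees of freedom, edgeR's quasi-likelihood test with Benjamini-Hochberg adjustment called 0 of 17149 genes for uterus (0% at FDR 0.05, smallest adjusted p 0.0596) and 0 of 17149 for conceptus (0%, smallest adjusted p 0.998). At an unadjusted p below 0.05 there were 2711 genes for uterus and 438 for conceptus, and DESeq2 called 983 and 22. Leaving out 1 explant of uterus 14 or 39 raised the edgeR count to between 1041 and 2004 for uterus and to between 21 and 118 for conceptus, and leaving out 1 of uterus 69 or 70 left it at 0 for both. Among the smallest p for uterus were SLAMF8, at 111 and 168 CPM in uterus 70 against 8.37 and 9.30 CPM in uterus 69, and IFI47, an interferon-inducible GTPase, at 60.8 and 85.2 CPM in uterus 70 against 1.95 and 2.30 CPM in uterus 69, each with an adjusted p of 0.0596.

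Over all 12 libraries edgeR called 1241 of 18242 genes between the 7 uteri (6.8%), with 5762 at an unadjusted p below 0.05 and 6055 called by DESeq2. In this test the uterus cannot be told apart from its conceptus partners or from collection day, which the labels do not give. Uteri 15 and 17 also cannot be told apart from well codes Q2 and S2. The p-values measure only the spread between explants of a uterus. The count moved between 126 without E70-S1-62b and 2968 without E17-S2-18, and every omission but that of E17-Q2-28 moved it by more than 1.5-fold. Of the genes called, 407 had their highest mean in uterus 17 (32.8%) and 331 in uterus 15 (26.7%), whereas uterus 15 (303) and uterus 39 (288) were most often lowest. Uteri 15 and 38 gave 1 explant each, so their means are single libraries. The same shares over all genes tested were not computed.

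Of 45 named genes called, 14 kept their call under each of the 12 omissions. HSD17B13, a lipid droplet dehydrogenase, had the smallest adjusted p (0.000991). It was at 184 to 271 CPM in uteri 17, 69 and 70, at 91.1 CPM in uterus 38, at 19.3 to 28.8 CPM in uteri 14 and 39 and at 3.47 CPM in uterus 15. MRPS36, a mitochondrial protein, was at 465 and 152 CPM in uterus 17, at 62.4 CPM in uterus 15 and at 14.9 CPM or less in the other 9 libraries (adjusted p 0.00215). GM2A, a lysosomal lipid transfer protein, ranged from 11.9 to 1045 CPM, PEPD, a dipeptidase, from 8.81 to 612 CPM and BPIFB1, a secreted mucosal protein, from 1.45 to 140 CPM. SLAMF8 (0.00215), IFI47 (0.00622), JSP.1 (0.00737), CCNB1 (0.0101) and HPGD (0.0108) were also among these 14 named genes.

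Of the ISG, 11 of 73 were called (15.1%), beside 1068 of 14397 genes kept (7.42%). They were MX1, OAS1X, OAS2, EIF2AK2, SHFL, RTP4, EPSTI1, TRIM5, HERC5, HERC6 and SP110, with adjusted p of 0.016 for OAS1X and 0.0467 for MX1. The MX1 call was lost without E15-Q2-28 or any 1 explant of uteri 14, 39, 69 or 70 (adjusted p up to 0.136), and that of OAS1X without any 1 explant of uteri 69 or 70 (up to 0.0703). RSAD2 (0.0853) and ISG15 (0.188) did not pass. Cell cycle genes were called for 10 of 24, among them MKI67 (0.00558) and TOP2A (0.0101), both lost without E15-Q2-28, where MKI67 came to 0.272 and TOP2A to 0.169. Of the class II genes 4 of 9 were called and of T and NK cell markers 5 of 9. Among these markers GZMB kept its call in 9 of 12 omissions, CD3D in 6, CD4 and PTPRC in 3 and PRF1 in 2. Of the class II genes, BLA-DQB kept its call in 9 omissions, BOLA-DMB in 5 and CIITA in 2. By the same test 0 of 8 stroma markers, 0 of 11 epithelial markers and 0 of 92 cytosolic ribosomal protein genes were called.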

How the data were processed

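RNA-seq of 12 endometrial explants was analysed. Per the labels and the study's methods, the authors trimmed reads with Trimmomatic, aligned them to ARS-UCD1.2 with STAR (endometrium) or HISAT2 (conceptus) and deposited raw counts per gene from featureCounts. Versions, the strand setting and the handling of multiply aligned reads were not given in the sources used here, so overlapping genes and paralogs are uncertain. The table's 28 other endometrial columns match no sample here and were not used, and 1 empty line was dropped.

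The software was edgeR 4.0.16 and DESeq2 1.42.0 under R 4.3.3. Genes were kept by filterByExpr (minimum count 10, minimum total 15), as 1 group for levels and by design for tests. Libraries were scaled by TMM, and log2 CPM used a prior count of 1. Levels and spreads are descriptions over 12 libraries (24593699 to 84030248 counts). Tests were quasi-likelihood F tests at FDR 0.05. They were also run on simulated counts with the same dispersion for every gene. Simulated libraries differed only by depth, counting noise and the genes changed on purpose. There 66% to 76% of the genes changed 2-fold were called, with 7 to 11 false calls per test. That setting is simpler than these data, so it does not show how the tests perform on them. Among the 66 pairs of libraries none were copies, the smallest chi-square divided by its degrees of freedom being 71.1.

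Members and lists were chosen with earlier results of these data known. Named were the 20 symbols with the highest mean CPM, the 20 with the highest and the lowest SD at a mean log2 CPM of at least 1, the leading members of each list by level and SD, RSAD2, ISG15, MX1, DCN, IL17A, CHRNB3 and SLC5A7, the smallest p of each test and the cell type markers. Other members of the lists are also given values where a class is described. Alternatives were RLE scaling or library totals, a prior count of 5, other filters, a median absolute deviation (MAD), DESeq2 and leaving out each library. For pair differences by list and for the values without E17-S2-18, leaving out libraries was added after the data were seen. Some items covered by this rule are not reported here.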

Additional observations from a re-analysis of the deposited data

How the results depend on the processing

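The 1218 genes with an SD of at least 1 became 5097 with no filter beyond a count above 0, which adds genes of few counts, and 1021 to 1352 when 1 library was left out. The median SD of all genes was 0.48, against 0.61 with no filter, 0.43 with the MAD and 0.45 to 0.49 with 1 library left out. The median SD of the ISG was 0.51, against 0.43 with the MAD and 0.47 to 0.54 with 1 library left out. The median distance within a uterus was 0.32, against 0.37 with no filter and 0.32 to 0.34 with 1 library left out. That within a conceptus was 0.42 to 0.50, and that of pairs sharing neither 0.46 to 0.51, with 1 library left out. The uterus count in the crossed libraries was 0, against 26 with no filter, 983 with DESeq2 and 0 to 2004 with 1 library left out (1 residual degree of freedom). The conceptus count was 0, against 22 with DESeq2 and 0 to 118 with 1 library left out. The uterus count over 12 libraries was 1241, against 3570 with no filter, 6055 with DESeq2 and 126 to 2968 with 1 library left out. The number of genes called thus rests on single libraries and the tool. The cause of these differences between tools was not tested. Median SD moved for 17 of 34 lists with the MAD. The levels of the 269 named genes moved by less than 1 SD in every alternative that gave a level. Leaving out 1 of 12 libraries can shift a mean by only a fraction of that SD, apart from rescaling. For the omissions this outcome was therefore close to fixed in advance, and it does not show that levels are free of single libraries. Of the 45 named genes called over 12 libraries, 14 kept the call in each of 12 omissions and 20 in at most 6. No paired analysis was possible because a replicate number pairs samples across groups and these 12 libraries belong to 1 group, while the crossed fit already held uterus and conceptus each as a block for the other. Depth limits genes of few counts, such as IFNT3 and IL17A.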

Other observations

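The filter removed 300 genes with a mean of at least 1 CPM, each near 0 in at least 1 library, and some of these, named after their values were seen, were at high levels in 1 or a few explants. PRSS2, a trypsin family gene whose paralogs may share reads, was between 31.7 and 54.1 CPM in the explants of uteri 14 and 38, and at 0.207 CPM or less in the other 9 libraries. CHRDL2, a BMP antagonist, reached 273 CPM in E17-S2-18 against a median of 0.0589 CPM, SAA3, an acute phase protein, 146 CPM in E17-Q2-28 against a median of 3.24 CPM, and PADI1, a peptidylarginine deiminase, 68.8 CPM in E15-Q2-28 against a median of 0.613 CPM.

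By a rule set after the values were seen, 11 genes were under 0.2 CPM in both explants of 1 uterus and at 5 CPM or more in both explants of another. The 6 with a symbol were GDF6, PRL, C15H11orf34, AK5, PRSS2 and CES3. AK5, an adenylate kinase, was at 17.3 and 6.96 CPM in uterus 17 and at 0.0350 and 0.0937 CPM in uterus 70. CES3, a carboxylesterase, was at 6.14 CPM or more in uterus 17 and at 0.110 and 0.153 CPM in uterus 39.

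IL17A, CHRNB3 and SLC5A7, a cytokine, a nicotinic receptor subunit and the choline transporter, were at the limit of detection. IL17A and CHRNB3 had at most 2 counts, each in 2 libraries, and SLC5A7 had 2 counts in 1 library. CCL11, an eosinophil chemokine, had 2 to 1964 counts with the highest in E39-S1-23, and MS4A1, a B cell surface protein, had 2 to 557 counts with the highest in E70-S1-62b.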
